A study of Homo sapiens with 12 samples.

Results

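The miR-200 family is a group of 5 hairpins on chromosomes 1 and 12 whose mature microRNAs (miRNAs) were followed here in extracellular vesicles, the membrane-bound particles that cells release. Its 9 named rows, both arms of miR-200a, miR-200b, miR-200c and miR-141 plus miR-429, were taken by name from a count table of 1636 mature miRNAs. The vesicles came from 6 cell lines labelled as colorectal cancer, RCM-1, HT55, SW1116, Hutu80, Car-1 and MDST8. Each line had 2 libraries, and no label names a treatment or genetic change. Hutu80 is otherwise known as a line from a tumour of the duodenum. The culture medium of all lines was DMEM/F12 with added fetal bovine serum and antibiotics, and vesicles were collected by ultrafiltration and size-exclusion chromatography before small RNA sequencing with IsoSeek, a low-input method whose adapters carry molecular identifiers. The series set out to compare 2 molecular subtypes of colorectal cancer with 3 lines each, but no label used here ties a line to a subtype, so the lines are compared with each other.

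A hairpin is cut into a 5p and a 3p arm, of which usually 1 is kept in the silencing complex. The arm binds messenger RNAs through its seed, bases 2 to 8. The family is known for repressing ZEB1 and ZEB2, transcription factors that switch off E-cadherin and drive epithelial cells towards a mesenchymal state. ZEB1 in turn is known to repress both miR-200 loci, so that the pair form a mutual switch, and the family is abundant in gut epithelium. Lost or low expression in tumours has been tied to invasive, mesenchymal-like cells.

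The mature sequences are shown because the members fall into seed groups that cross the chromosomes, and because several are close enough for reads to be confused. Of the 9 names, 8 had an entry in RefSeq (GRCh38.p14). They are written 5′ to 3′ with the seed in capitals.
hsa-miR-200b-3p: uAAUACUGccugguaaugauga
hsa-miR-200c-3p: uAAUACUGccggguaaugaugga
hsa-miR-429: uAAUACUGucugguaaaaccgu
hsa-miR-200a-3p: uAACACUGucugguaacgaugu
hsa-miR-141-3p: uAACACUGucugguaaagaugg
hsa-miR-200a-5p: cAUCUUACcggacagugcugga
hsa-miR-200b-5p: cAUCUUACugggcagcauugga
hsa-miR-200c-5p: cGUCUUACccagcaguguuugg
The first 3 share the seed AAUACUG, and miR-200a-3p and miR-141-3p share AACACUG. Counted from 1 at the 5′ end, miR-200b-3p has C4U against miR-200a-3p inside the seed. Each seed group spans both chromosomes. Within a group, miR-200c-3p differs from miR-200b-3p by U11G and A22G over the 22 bases they can be compared on, and miR-141-3p from miR-200a-3p by C17A and U22G. How reads matching both members of such a pair were counted is not given in the sources used here, so counts of near-identical members are uncertain to that extent. The 5p arms of miR-200a and miR-200b share the seed AUCUUAC, and that of miR-200c differs in its first seed base.

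The chromosome 1 cluster holds MIR200B (chr1:1167104-1167198), MIR200A (chr1:1167863-1167952) and MIR429 (chr1:1169005-1169087), all on the plus strand within 1984 bases. GENCODE 29 places them between genes, and RefSeq inside the host transcript MIR200BHG (chr1:1162877-1170338). The chromosome 12 cluster holds MIR200C (chr12:6963699-6963766) and MIR141 (chr12:6964097-6964191) within 493 bases, in an intron of the non-coding gene MIR200CHG. The hairpins that give the most abundant member of each cluster are shown with their mature arms in capitals.
MIR200B: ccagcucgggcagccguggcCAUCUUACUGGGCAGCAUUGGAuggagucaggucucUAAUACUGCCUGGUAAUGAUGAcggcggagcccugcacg
MIR200C: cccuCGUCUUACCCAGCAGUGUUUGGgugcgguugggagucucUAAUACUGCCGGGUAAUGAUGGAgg
Both hairpins have their 5p arm in capitals first and their 3p arm second.

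Library totals ran from 71831 counts in Hutu80 replicate 1 to 622800 in SW1116 replicate 1, so that 1 count was worth 1.61 to 13.9 CPM (counts rescaled so that every library has the same total). Unless called a share, a level is in CPM after scaling by trimmed-mean (TMM) factors. Replicate libraries of every line differed beyond sampling noise (chi-square over its degrees of freedom, 8.18 to 56.8). Markers of gut epithelium (miR-192-5p, miR-194-5p, miR-215-5p and miR-375-3p) were all detected in every line, at a summed 0.106% to 2.55% of counts. A library holds the RNA of all vesicles collected, so fewer vesicles with a miRNA and less of it per vesicle cannot be told apart.

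The family as a whole made up between 0.424% and 12.97% of a library's counts, and the lines fell into a high, a middle and a low range. HT55 had 12.97% and 12.2%, RCM-1 7.36% and 11.3%, and SW1116 6.91% and 7.54%. Car-1 lay below these at 4.36% and 6.16%. Hutu80 followed with 1.33% and 1.09%, and MDST8 was lowest with 0.520% and 0.424%. The ranges of SW1116 and RCM-1 overlapped, and those of no other lines did.

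Most of these counts came from 2 miRNAs. miR-200c-3p took 46.0% to 83.7% of the family's counts in a library and miR-200b-3p 13.3% to 42.7%. miR-200a-3p followed with 1.13% to 8.45%, miR-200b-5p with 0.451% to 1.54% and miR-429 with 0.105% to 0.769%. Over all libraries there were 147659 counts of miR-200c-3p, 45248 of miR-200b-3p, 3755 of miR-200a-3p, 1518 of miR-200b-5p, 599 of miR-429, 464 of miR-141-3p and 459 of miR-200a-5p. hsa-miR-141-5p had 7 counts in 3 libraries, and miR-200c-5p had 0 in all 12. These last 2 did not pass the filter on low counts, so 7 of the 9 members were among the 318 miRNAs tested.

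All 7 tested members differed among the 6 lines in edgeR's quasi-likelihood F-test with Benjamini-Hochberg adjustment over the 318 miRNAs. The test also called 68.2% of all tested miRNAs, so passing it was common in these lines. Adjusted p-values ran from 3.38e-12 for miR-200b-3p, the 12th smallest of all, and 1.38e-11 for miR-200c-3p, the 16th, to 3.19e-06 for miR-141-3p.

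On chromosome 12, miR-200c-3p is the member studied most as a ZEB1 repressor. It reached 104998 and 79613 CPM in the HT55 libraries, 68502 and 104092 in RCM-1, and 69837 and 90859 in SW1116. Its levels in Car-1 were 14089 and 26209, in Hutu80 8030.2 and 6559.6, and in MDST8 4153 and 3056. HT55, RCM-1 and SW1116 overlapped at the top, and the other lines stood apart from them and from each other. None of the 3 pairs among the top lines passed the test, with log2 differences of 0.20 ± 0.31 (SE) for HT55 minus SW1116 (edgeR adjusted p = 0.70), 0.10 ± 0.31 for HT55 minus RCM-1 (0.922) and -0.10 ± 0.31 for SW1116 minus RCM-1 (0.943). The next steps down all passed. From SW1116 to Car-1 the level fell by 2.00 ± 0.32 (edgeR adjusted p = 3.02e-05), from Car-1 to Hutu80 it fell by 1.47 ± 0.32 (0.00191), and from Hutu80 to MDST8 it fell by 1.02 ± 0.32 (0.0147).

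miR-141-3p is cut from the neighbouring hairpin and carries the other seed. Counts of miR-200c-3p were 137 to 780 times those of miR-141-3p in the same library, with 0.5 added to both counts. Its levels were 497 and 319 CPM in RCM-1, 261 and 213 in SW1116, 130.3 and 153 in HT55, and 97.5 and 35.0 in Car-1. Hutu80 had 10.9 and 42.0 CPM and MDST8 22.2 and 9.42, from 6 and 10 counts in all. RCM-1 stood highest here, both libraries above those of HT55, but the difference between these lines did not pass (HT55 minus RCM-1 -1.50 ± 0.55, edgeR adjusted p = 0.0787). No neighbours in this order differed past the threshold, while lines farther apart did, such as Car-1 minus SW1116 (-1.81 ± 0.57, edgeR adjusted p = 0.0133).

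On chromosome 1, miR-200b-3p shares its seed with miR-200c-3p, but here Car-1 overlapped RCM-1. HT55 was highest with 46385 and 32985 CPM, followed by SW1116 with 23272 and 23882. RCM-1 had 11014 and 17522 and Car-1 13089 and 14119, so the values of Car-1 lay inside the range of RCM-1. Hutu80 had 2155 and 2301, and MDST8 1200.1 and 842. HT55 and SW1116 did not overlap, yet their difference missed the threshold (0.75 ± 0.29, edgeR adjusted p = 0.0704), as did that of SW1116 and RCM-1 (0.72 ± 0.29, 0.114). The former passed with library totals as scaling (1.19, adjusted p = 0.00155), in limma-trend, a test on the deposited log2 table (1.18, 0.00289), and in DESeq2 (0.0415). HT55 was above RCM-1 by 1.47 ± 0.29 (edgeR adjusted p = 0.00156). Car-1 was above Hutu80 by 2.61 ± 0.31 (1.3e-06), and MDST8 fell below Hutu80 by 1.13 ± 0.30 (0.00474).

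miR-200a-3p, which carries the seed of miR-141-3p, showed 2 tiers. Its levels were 1859 and 2209 CPM in HT55, 2589 and 1105 in Car-1, 1878 and 1561 in SW1116, and 1817 and 1410.4 in RCM-1. Hutu80 had 175 and 176 and MDST8 133 and 109.9. The first 4 lines overlapped and none of their 6 pairs passed, while each of them was above Hutu80 and MDST8. The smallest of these steps was from RCM-1 to Hutu80, where it fell by 3.19 ± 0.42 (edgeR adjusted p = 1.03e-06).

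miR-429, the last hairpin of the cluster, followed the same 2 tiers at a lower level. It was at 469 and 312 CPM in HT55, 326 and 389 in SW1116, 288 and 195 in RCM-1, and 236 and 135 in Car-1. It was at 10.9 and 33.6 in Hutu80 (5 counts) and 6.35 and 18.8 in MDST8 (8 counts). The 5p arms of miR-200b and miR-200a repeated the split. miR-200b-5p was at 2076 and 1381 CPM in HT55, above every other line. It was at 693 and 639 in RCM-1, 433 and 683 in SW1116, and 264 and 655 in Car-1. In Hutu80 it was at 65.6 and 92.4, and in MDST8 at 76.2 and 34.6. miR-200a-5p had 382 and 307 CPM in HT55, 264 and 200 in Car-1, 152 and 257 in SW1116, and 91.5 and 201 in RCM-1. MDST8 had 15.9 and 18.8, while Hutu80 had 0 counts in replicate 1 and 1 count, or 8.40 CPM, in replicate 2. With a single count, the ratio of HT55 to Hutu80 for miR-200a-5p was 54.9, from pooled counts over library totals without TMM factors. Its 95% counting interval of 9.64 to 2187 covers counting error only.

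**Figure D1:**
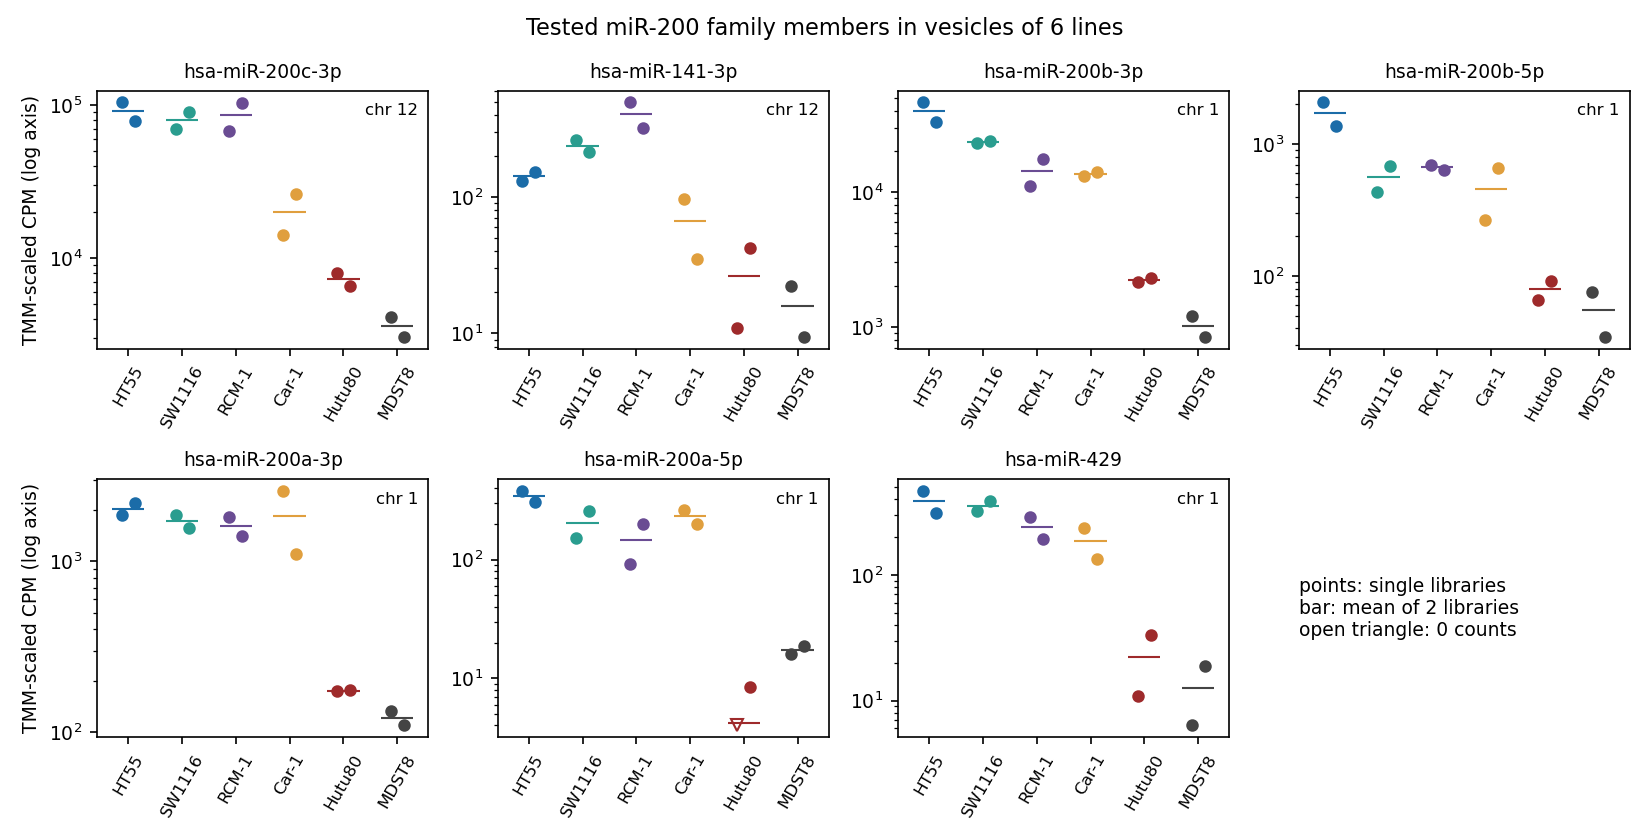
TMM-scaled CPM (log axis, its range set per panel) of the 7 tested members in the 6 lines; points are libraries, bars the mean of 2, and the open triangle at the foot of the hsa-miR-200a-5p panel marks the Hutu80 library with 0 counts. MDST8 and Hutu80 lie below the other 4 lines in every panel but that of hsa-miR-141-3p, where Hutu80 and Car-1 overlap, and Car-1 lies with the high lines for hsa-miR-200a-3p but between the tiers for hsa-miR-200c-3p.

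Pairs of lines were then compared in the same edgeR fit, to see which of these steps held for the family. Pairs share lines and are therefore not independent. MDST8 was below 4 lines in all 7 members. These lines were HT55, where 39.6% of all tested miRNAs were called in either direction, Car-1 (41.5%), SW1116 (34.9%) and RCM-1 (42.1%). The median difference of the 7 members was 4.68 for HT55 minus MDST8, against 0.11 for all miRNAs, and 3.70 for Car-1 minus MDST8, against 0.31. Hutu80 was below HT55 (30.8% of all called), SW1116 (44%) and RCM-1 (41.2%) in all 7, and below Car-1 in 6 of 7 (18.2%), with miR-141-3p short of the threshold (1.25 ± 0.76, edgeR adjusted p = 0.314). MDST8 and Hutu80 themselves differed in 2 members, miR-200b-3p and miR-200c-3p, both lower in MDST8, where 43.1% of all miRNAs were called. These last calls ended without Hutu80 replicate 1 (adjusted p = 0.232 for miR-200b-3p and 0.627 for miR-200c-3p), without Hutu80 replicate 2 (0.109 and 0.102), without MDST8 replicate 2 (0.09 and 0.137) and without HT55 replicate 2 (0.0533 and 0.131). That of miR-200c-3p also ended without Car-1 replicate 1 (0.068) or 2 (0.0679), and both with no filter on low counts (0.173 and 0.261). In limma-trend on the deposited log2 table miR-200a-5p was called higher in MDST8 (adjusted p = 0.0349), on 11 counts against 1 in Hutu80. Over library totals without TMM factors this was a ratio of 2.93, with a 95% counting interval of 0.426 to 126.2.

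Among the 4 upper lines the members parted. SW1116 and RCM-1 had 0 of 7 members called by edgeR (13.5% of all miRNAs were), with 1 at an unadjusted p under 0.05 and 1, miR-200b-3p, called by DESeq2 (adjusted p = 0.0457). HT55 and SW1116 differed in 1 member, miR-200b-5p, higher in HT55 by 1.63 ± 0.43 (edgeR adjusted p = 0.00926), against 20.4% of all miRNAs. HT55 and RCM-1 differed in miR-200b-3p and miR-200b-5p, the arms of 1 hairpin, both higher in HT55 (13.5% of all called). The 5p arm was 1.37 ± 0.43 higher there (edgeR adjusted p = 0.0361). The miR-200b-5p calls ended without HT55 replicate 1 (adjusted p = 0.104 against SW1116, 0.251 against RCM-1), the former also without SW1116 replicate 1 (0.109) and the latter without RCM-1 replicate 1 (0.138) or 2 (0.177). That of miR-200b-3p ended without RCM-1 replicate 1 (0.0528). HT55 was above Car-1 in 3 members (28.9% of all called), miR-200c-3p by 2.20 ± 0.33, miR-200b-5p by 1.91 ± 0.44 and miR-200b-3p by 1.54 ± 0.29.

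In Car-1 against RCM-1 the tested members of the clusters gave different calls. In that pair, where 42.1% of all miRNAs were called, both tested chromosome 12 members were lower in Car-1, miR-200c-3p by 2.10 ± 0.33 (edgeR adjusted p = 1.42e-05) and miR-141-3p by 2.58 ± 0.58 (0.000969). None of the 5 chromosome 1 members was called there with all libraries and TMM scaling. Their differences, Car-1 minus RCM-1, were -0.07 ± 0.29 for miR-200b-3p (edgeR adjusted p = 0.877), 0.20 ± 0.35 for miR-200a-3p (0.674), -0.36 ± 0.49 for miR-429 (0.576), -0.54 ± 0.43 for miR-200b-5p (0.334) and 0.63 ± 0.52 for miR-200a-5p (0.353). With library totals in place of TMM factors, 2 of them were called higher in Car-1, miR-200a-3p (0.88, adjusted p = 0.0495) and the 5p arm of its hairpin (1.30, 0.0436), and in limma-trend miR-200b-3p was (0.65, 0.0494), while the median of all miRNAs moved from 0.14 to 0.81 with library totals.

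Against SW1116 (39.3% of all called), Car-1 was lower in miR-200c-3p and miR-141-3p, while miR-200b-3p was at -0.79 ± 0.29 (edgeR adjusted p = 0.0322) but turned to 0.295 with library totals and 0.289 in limma-trend. With library totals both arms of miR-200a were called higher in Car-1 (1.18, adjusted p = 0.00816, and 1.29, 0.0344), as miR-200a-3p was in limma-trend (1.07, 0.026). The call of miR-141-3p ended with library totals (0.282), and the median of all miRNAs moved from 0.26 to 1.34. The miR-200b-3p call against SW1116 ended without Car-1 replicate 1 (adjusted p = 0.141), SW1116 replicate 1 (0.077) or 2 (0.105). The miR-141-3p call there ended without Car-1 replicate 2 (0.116) or SW1116 replicate 1 (0.0761), and that of Car-1 against MDST8 without Car-1 replicate 1 (0.316) or MDST8 replicate 2 (0.132). In Car-1 against RCM-1, both chromosome 12 calls held in all 12 fits with a library left out, and miR-200b-5p, of chromosome 1, was also called lower in Car-1 without Car-1 replicate 2 (-1.34, adjusted p = 0.0349).

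Over the 15 pairs, 68 of 105 tests of a member (64.8%) passed, against 1569 of 4770 tests of any miRNA (32.9%). miR-200b-3p and miR-200c-3p passed in 12 of 15 pairs each, miR-200b-5p in 11, miR-141-3p in 9, and miR-429 and both arms of miR-200a in 8 each.

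**Figure D2:**
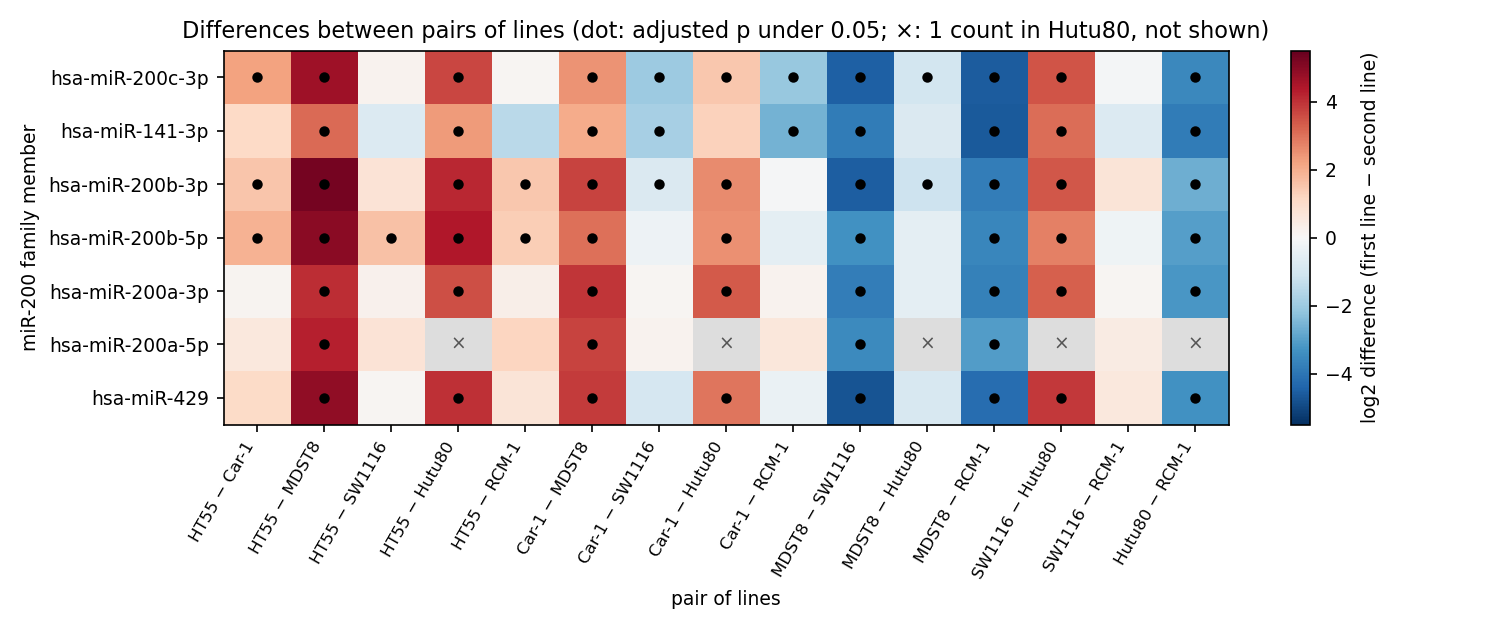
Fitted log2 differences (colour) of the 7 tested members in the 15 pairs of lines, first line minus second; black dots mark an edgeR adjusted p under 0.05, and crosses the 5 pairs of hsa-miR-200a-5p with Hutu80, whose 1 count gives no stable fold. The 2 upper rows, from chromosome 12, are called lower in Car-1 than in RCM-1 (2.10 and 2.58), where the 5 lower rows, from chromosome 1, carry no dot (with library totals as scaling, both arms of miR-200a would).

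The balance of the clusters was then measured within each library, as the ratio of the summed counts of chromosome 12 members to those of chromosome 1, which needs no scaling between libraries. The ratio was 4.96 and 5.23 in RCM-1, 2.69 and 3.40 in SW1116, 3.34 and 2.52 in Hutu80, 2.91 and 2.99 in MDST8, and 2.05 and 2.14 in HT55. In Car-1 it was 0.863 and 1.62. RCM-1 was thus above and Car-1 below every other library, HT55 lay just above Car-1, and SW1116, Hutu80 and MDST8 overlapped. Chromosome 12 gave 83.2% and 83.9% of family counts in RCM-1 but 46.3% and 61.8% in Car-1. MDST8 and SW1116, whose total family shares lay far apart, had overlapping ratios.

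The ratio differed among lines by an exact permutation test over all 10395 ways of pairing the 12 libraries (one-sided by construction, p = 0.00192, adjusted p = 0.00909 over the 9 ratios tested). The line means spanned 2.11 on the log2 scale, and the largest gap between the 2 libraries of a line was 0.91, in Car-1. The call ended without RCM-1 replicate 2 (exact permutation test, adjusted p = 0.0567) and, at an adjusted p of 0.05, with the replicate number as a block. The adjusted p over 9 ratios was lowered by the arm ratio of miR-200c (exact permutation p = 0.00202), which rests on an added count. Adjusted over the 7 ratios left without the arm ratios of miR-200c and miR-141, it was 0.0135 with all libraries, and 6 of 12 fits without a library passed. Since miR-200c-3p and miR-200b-3p hold most of the counts, this ratio is chiefly that of these miRNAs.

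**Figure D3:**
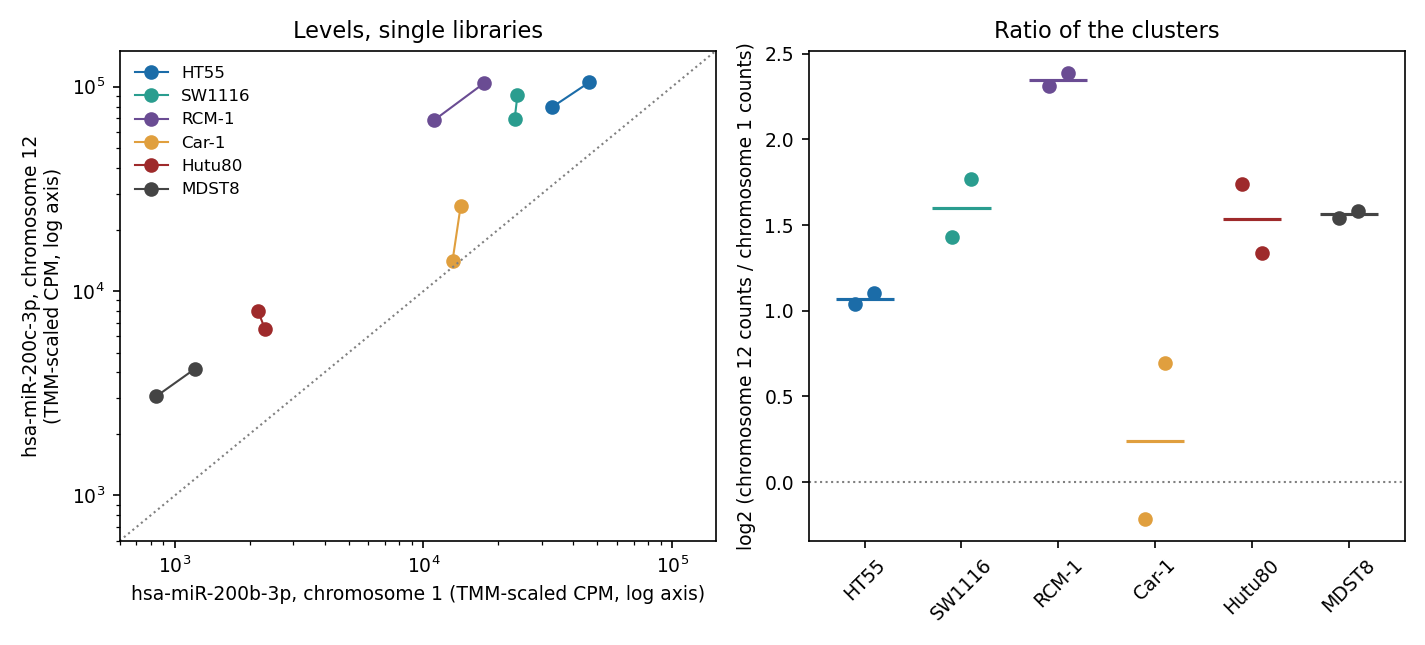
Left, hsa-miR-200c-3p against hsa-miR-200b-3p (TMM-scaled CPM, both axes log), with the 2 libraries of a line joined and equality dotted; right, log2 ratio of chromosome 12 to chromosome 1 counts, points for libraries and bars for line means. Car-1 lies nearest to equality (ratios of 0.863 and 1.62) and RCM-1 farthest above it (4.96 and 5.23).

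The 4 other ratios between hairpins showed no difference among lines past the threshold. The seed of miR-200b over that of miR-200a, which sums 3p members across both chromosomes, gave an exact permutation p of 0.241 (adjusted p = 0.362). Within chromosome 1, miR-200b-3p over miR-200a-3p had an adjusted exact permutation p of 0.362 and miR-200b-3p over miR-429 of 0.888. Within chromosome 12, miR-200c-3p over miR-141-3p had 0.719. The libraries of a line differed widely in them, with a gap of 2.30 on the log2 scale for miR-200c-3p over miR-141-3p in Car-1.

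The arms of each hairpin were compared next. The 5p arm gave 10.9% of miR-200a counts (459 of 4214, 95% Wilson interval 9.99% to 11.9%) and 3.25% of miR-200b counts (1518 of 46766, 3.09% to 3.41%). miR-141 had 7 of 471 counts on its 5p arm, or 1.49% (0.722% to 3.04%). miR-200c had 0 of 147659, where a floor of 3 counts over all libraries would be a share of 0.00203%. Counts of its 3p arm were at least 49220-fold above this floor. These intervals pool libraries and cover counting error only. The 5p arm of miR-200c, whose sequence is in capitals in the hairpin above, was thus not counted in any library, while that of miR-200b was counted in every library. With the aligner and the miRNA annotation not given, whether these sequences were captured and mapped alike cannot be told. The shares and ratios of different sequences are therefore those of counts.

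By library, the 5p share of miR-200a was 17.1% and 12.2% in HT55, 9.26% and 15.3% in Car-1, 10.6% and 14.6% in MDST8, 7.48% and 14.1% in SW1116, and 4.79% and 12.5% in RCM-1. Hutu80 had 0 of 16 and 1 of 22 counts. Hutu80 lay below the other libraries on these few counts, the other 5 lines overlapped, and the libraries of SW1116 and of RCM-1 differed from each other by more than their counting intervals. The 5p share of miR-200b was 4.28% and 4.02% in HT55, 1.98% and 4.43% in Car-1, 5.97% and 3.94% in MDST8, 1.83% and 2.78% in SW1116, 2.96% and 3.86% in Hutu80, and 5.92% and 3.52% in RCM-1. SW1116 was low in both libraries, but Car-1 replicate 1 lay within its range.

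Neither arm ratio differed among lines past the threshold. The exact permutation test gave p = 0.211 for miR-200a and 0.282 for miR-200b (adjusted p = 0.362 each). In limma's F-test over the 58 hairpins with both arms tested, the adjusted p was 0.317 and 0.542, while 27.6% of hairpins passed. The line means of the log2 ratio of 3p to 5p spanned 1.89 for miR-200a and 1.19 for miR-200b, the 22nd and 8th smallest of the 58, where the median was 2.31. The arm ratios of miR-200c and miR-141 rest on an added count of 0.5 where the 5p arm is at 0, and no reading is given for them. That of miR-200a rests on the same added count in Hutu80 replicate 1, which had 0 5p counts. Hutu80 had its highest line mean (4.44, against 2.55 to 3.53 in the other lines), so the range and rank of miR-200a rest partly on this.

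**Figure D4:**
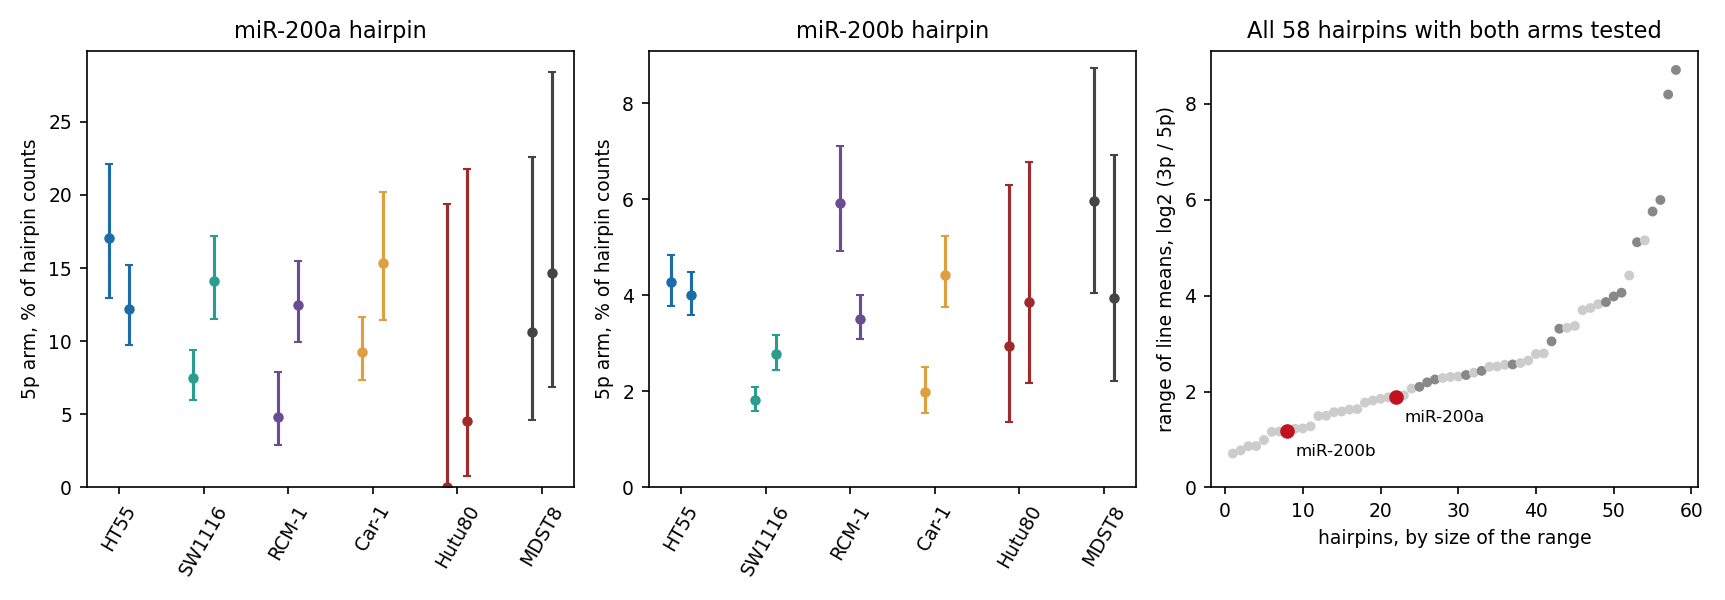
Left and middle, the 5p arm's percent of hairpin counts for miR-200a and miR-200b in each library, with 95% Wilson intervals; right, the range of line means of log2 (3p / 5p) for 58 hairpins ordered by size, dark grey where limma called a difference among lines. The red points, miR-200b at 1.19 and miR-200a at 1.89, lie below the median range of 2.31. The range of miR-200a has Hutu80 at its top, where replicate 1 had 0 5p counts.

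The members' patterns over the 6 line means were alike. Pearson r between members ran from 0.739 for miR-200a-5p and miR-141-3p to 0.987 for miR-200b-3p and miR-429, both of chromosome 1, and was 0.942 for miR-200b-3p and miR-200c-3p. miR-141-3p followed miR-200c-3p (0.952) more closely than miR-200a-3p (0.845), which shares its seed. The likeness was not limited to a cluster, as miR-200c-3p and miR-429 of chromosome 1 had 0.957. All points share the same libraries and scaling, and 6 lines are few. Outside the family, the miRNAs nearest to miR-200c-3p were miR-203a-3p (0.988), let-7d-5p (0.977), miR-196b-5p (0.955), miR-224-5p (0.936) and miR-18a-3p (0.933). miR-203a-3p, a miRNA of stratified epithelium, was at 5209 ± 1330 CPM (SD, n = 2) in HT55 and near it in SW1116 (5026 ± 711) and RCM-1 (5378 ± 334). It was at 221 ± 68.7 in MDST8, 361 ± 47.1 in Hutu80 and 658 ± 51.8 in Car-1. Nearest to miR-200b-3p were miR-196b-5p (0.934), miR-1-3p (0.917), miR-203a-3p (0.886), let-7d-5p (0.873) and miR-194-3p (0.856).

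Other miRNAs of the epithelial-mesenchymal switch were set beside the family in HT55 and MDST8, the lines with its highest and lowest share. Of 6 listed repressors of SNAI or ZEB factors outside the family, 5 were tested, and all 5 passed across lines, where 68.2% of all tested miRNAs did. In HT55 against MDST8, miR-203a-3p was higher by 4.55 ± 0.35 and miR-205-5p by 1.54 ± 0.50, while miR-34a-5p fell by 3.46 ± 0.47 and miR-30a-5p by 3.29 ± 0.37. miR-34c-5p had 0 counts in HT55 and 27 in MDST8, at least 4.69-fold lower in HT55 by a floor of 3 counts over the line. The median of the 5 was -3.29, or -2.23 with miR-34c-5p at that bound, against 4.68 for the family and 0.11 for all miRNAs. The remaining listed member, miR-34b-3p, did not pass the filter. All 6 listed promoters of the transition were tested and passed across lines, a test that 68.2% of all tested miRNAs passed. In the same pair the oncogenic miR-21-5p, miR-221-3p, miR-222-3p, miR-10b-5p and miR-9-5p were lower in HT55, with a list median of -1.61, and miR-155-5p was higher by 1.13 ± 0.33. Other pairs in which 6 or 7 members differed gave mixed values for these promoters, and 18.2% to 44% of all miRNAs were called in them. MDST8 was again higher for most of the promoters in MDST8 minus RCM-1 (median 1.43, 5 higher and 0 lower). The same held in Car-1 minus MDST8 (-1.20, 1 higher and 4 lower in Car-1). In Hutu80 minus RCM-1 their median was -0.36, with 1 in each direction, and in Car-1 minus Hutu80 0.24, with 0 called. In SW1116 minus Hutu80 their median was 1.11, with 5 higher and 1 lower in SW1116. In MDST8 minus SW1116 it was 0.03, with 1 higher and 0 lower by edgeR's adjusted p, and in HT55 minus Hutu80 0.23, with 1 in each direction. All 4 gut epithelium markers were higher in HT55 than in MDST8, with a median of 3.09, where 39.6% of all miRNAs were called in either direction. All 4 were also lower in MDST8 than in SW1116 and RCM-1, and lower in Hutu80 than in RCM-1. Against Hutu80, 3 were higher and 0 lower in HT55, and likewise in SW1116. Car-1 departed from this, with 2 higher and 0 lower than in MDST8 (median 0.61) and 0 called against Hutu80 (-0.07). In these other pairs 18.2% to 44% of all miRNAs were called.

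Markers of blood and serum, which fetal serum in the medium could carry, had 4 of 5 tested and 1 called across lines, miR-486-5p. Of all tested miRNAs, 68.2% were called across lines. Their summed share was 0.102% to 0.628% of counts, at 0.527% and 0.628% in Car-1, 0.479% and 0.552% in HT55 and 0.401% and 0.537% in Hutu80, which overlapped, and lower in the other 3 lines, down to 0.102% in SW1116. In MDST8, SW1116 and RCM-1, 1 of the 5 was at 0. Markers of stroma and muscle had 2 of 4 tested, both called across lines as were 68.2% of all tested miRNAs, at 0.0175% to 0.0871% of counts. The part of either list in the family's differences was not tested.

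The region at the start of each host transcript is shown because ZEB factors are known to bind the E-box CACCTG. RefSeq gives 250 bases before to 50 after the start. Matches to CACCTG or its reverse complement CAGGTG are in capitals, the rest in lower case, on the plus strand.
MIR200BHG: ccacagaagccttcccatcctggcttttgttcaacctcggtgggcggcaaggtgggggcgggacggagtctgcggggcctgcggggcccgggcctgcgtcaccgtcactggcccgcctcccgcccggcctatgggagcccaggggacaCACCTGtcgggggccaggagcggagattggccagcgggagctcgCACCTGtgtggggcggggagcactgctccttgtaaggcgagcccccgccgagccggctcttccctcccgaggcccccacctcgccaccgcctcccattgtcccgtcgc
MIR200CHG: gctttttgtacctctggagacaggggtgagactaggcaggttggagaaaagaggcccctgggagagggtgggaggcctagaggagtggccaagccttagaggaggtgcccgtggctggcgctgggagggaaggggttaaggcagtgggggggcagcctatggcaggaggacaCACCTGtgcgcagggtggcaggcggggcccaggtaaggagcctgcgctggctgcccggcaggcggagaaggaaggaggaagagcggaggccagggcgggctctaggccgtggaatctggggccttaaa
The windows are chr1:1162627-1162926, with 2 matches, and chr12:6962995-6963294, with 1. Of 35116 RefSeq promoter windows of this length, 20.6% held at least 1 match and 3.49% at least 2. A match describes these letters only, and no binding was measured here.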

How the data were processed

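Small RNA of extracellular vesicles was sequenced in 12 libraries, 2 for each of 6 lines, per the labels. The deposited table holds whole-number counts, not normalised, of 1636 mature miRNAs. The other deposited table is on the log2 scale and matched log2(CPM + 1) of these counts in all 19632 cells, to within 4.97e-14. The submitters' processing notes name the build hg38. Not given in the sources used here are the aligner, the miRNA annotation and any collapsing of molecular identifiers, so counting intervals may understate the error. No label says that replicate libraries are separate cultures. The p-values therefore measure only how far these libraries spread, which may be technical.

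Counts were filtered with filterByExpr by line (318 miRNAs with 99.7% of 3141138 counts), scaled by TMM (factors 0.641 to 1.46) and tested in edgeR 4.0.16 (glmQLFit, robust) with 1 mean per line over all 12 libraries, without a block (common biological coefficient of variation 0.304). Adjustment was Benjamini-Hochberg per comparison, with a threshold of 0.05. An SE is the difference divided by the square root of F. A called difference between lines has an adjusted p under 0.05. Within-library ratios (0.5 added to both counts) were tested by exact permutation, whose smallest p is 9.62e-05. Arm ratios of all hairpins were tested in limma 3.58.1. Alternatives included DESeq2 1.42.0, limma-trend on the deposited log2 table, voom, other scalings and filters, a replicate block and leaving out each library. On simulated data (299 miRNAs, MDST8 changed, test across lines), edgeR called 12 of 39 miRNAs changed 2-fold, 25 of 31 changed 4-fold and 29 of 29 changed 8-fold. It also called 2 of 200 unchanged ones. The simulation gave all miRNAs the same spread and left the other lines alike, so these rates need not hold for the real libraries.

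The text names the 9 members, 2 lists of transition miRNAs, marker lists for gut, blood and stroma, and the 5 tested miRNAs with the highest Pearson r to miR-200c-3p and to miR-200b-3p (log2 CPM, prior count 2). The members and lists were chosen with earlier results of these data known.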

Additional observations from a re-analysis of the deposited data

How the results depend on the processing

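All 7 tested members passed across lines in the 9 other settings and the 12 fits without a library, where the count of all miRNAs called across lines was 204 to 258. Member-by-pair calls numbered 65 to 71, against 68. miR-200b-3p changed sign in Car-1 minus SW1116, from -0.79 to 0.295 with library totals and 0.289 in limma-trend, run on the deposited log2 table, and in Car-1 minus RCM-1, from -0.07 to 0.648 in limma-trend (adjusted p = 0.0494). Both settings omit TMM factors. Library totals moved the median of all miRNAs by over 0.1 in most pairs (Car-1 minus RCM-1 from 0.14 to 0.81, SW1116 minus Hutu80 from -0.23 to -1.08). In limma-trend, miR-200b-5p lost its call in HT55 minus RCM-1 (adjusted p = 0.0632) and miR-141-3p in Car-1 minus SW1116 (0.317). Without the 10 most abundant other miRNAs, miR-200c-3p lost its call in MDST8 minus Hutu80 (0.0518), and in voom miR-141-3p did in Car-1 minus MDST8 (0.0671). With no filter on low counts, miR-200b-3p was called in SW1116 minus RCM-1 (0.0122), as it was without Car-1 replicate 1 (0.0444) or 2 (0.0445). The number of hairpins with a called arm ratio fell from 16 to 7 when both arms had to reach 10 CPM in 2 libraries, and was 8 to 17 with a library left out, lowest without Hutu80 replicate 2. The adjusted p of the cluster ratio was 0.0147 to 0.0567 with a library left out. Its adjustment over 7 ratios (0.0135) was chosen after seeing the data. The cause of these changes was not tested.

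With the replicate number as a block, the adjusted p of the cluster ratio was 0.05, on the threshold, and members called numbered 68 over pairs, as without it. Deviations of same-numbered libraries had correlations of -0.228 to 0.266 between lines, over 0.1 in 5 of 15 pairs of lines. Whether the numbers pair the samples cannot be told from these values. Depth limits miR-141-3p, miR-429 and miR-200a-5p in Hutu80 and MDST8, at 1 to 11 counts per line.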

Other observations

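The 2 libraries of a line differed in the weight of the rarer seed. The log2 ratio of miR-200b-3p to miR-200a-3p, replicate 1 minus replicate 2, was 0.74 in HT55, -1.34 in Car-1, -0.30 in SW1116 and -1.04 in RCM-1. The same gap for miR-200c-3p over miR-141-3p was 0.61, -2.30, -0.67 and -1.24, with the same sign in each of these 4 lines. In MDST8 (0.24 and -0.67) and Hutu80 (-0.09 and 1.78) the signs were opposite, on 10 and 6 counts of miR-141-3p. The ratios share a library but no counts, they were chosen after their values were seen, and no test was made.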
